A study of Rattus norvegicus with 6 samples.

Results

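Genes that mark macrophages and other leukocytes were followed in cultured rat ADSCs (adipose-derived stem cells), which are stromal cells of fat that can turn into adipocytes. The set was a list of 44 gene symbols, and 43 of them were measured, among 18166 genes with a symbol of their own on the arrays. The exception was Fcgr2b, an inhibitory Fc receptor, whose only feature carried several symbols and was not used. The rule took the brightest feature of a gene, and 0 of the 43 genes had more than 1 feature. The list was not chosen by a contrast between the groups, but it was chosen with earlier results of these data known.

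The study compared 3 arrays of induced ADSCs with 3 arrays of control ADSCs, to find coding and noncoding genes that differ after adipogenic induction. Induced cells spent 7 days in medium with 0.5 mM 3-isobutyl-1-methylxanthine (a phosphodiesterase inhibitor), 1 µM dexamethasone (which activates the glucocorticoid receptor), insulin at 5 µg/ml and 20% fetal bovine serum. Control cells had none of these inducers and 10% serum, so serum and inducers differed together, and how long they were cultured is not stated in the labels. All cells came from the inguinal fat of female Wistar rats aged 2 weeks, and no genetic change or sorting step is named in the labels. The labels call all 6 samples biological replicates and name no animals or donors, so p-values measure the spread between these samples.

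Macrophages are the main leukocytes of fat tissue. They take up dying cells and lipid, and in culture they adhere to plastic as stromal cells do. Their growth and survival depend on the receptor CSF1R and the transcription factor PU.1. Their receptors signal through adaptors with an ITAM (an activation motif read by the kinase SYK), and they carry an NADPH oxidase, scavenger receptors and much lysosomal enzyme.

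Values are log2 RMA signals, so a difference of 1 is a factor of 2, and arrays are given in the order of replicates 1, 2 and 3. The array medians over all features lay between 5.64 and 5.73. Stromal markers were high on all arrays: the stromal list (8 genes such as Col1a1, a chain of type I collagen) averaged 11.91, 11.97 and 10.55 on the induced arrays, against 12.35, 12.03 and 11.99 on the control arrays. Col1a1 itself read 12.70, 12.72 and 12.24 on the induced arrays, against 12.94, 13.18 and 13.32 on the control arrays. The adipocyte list (10 genes) averaged 10.78, 10.79 and 11.61 on the induced arrays, against 8.57, 7.00 and 6.78 on the control arrays. Induced replicate 3 thus had the highest adipocyte mean and the lowest stromal mean of the 6 arrays. Control replicate 1 had the highest adipocyte mean of the control arrays.

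Macrophage and leukocyte genes averaged lowest on replicate 3 of each group. Their mean was 7.08, 6.76 and 5.74 on the induced arrays, against 6.54, 6.83 and 5.80 on the control arrays, so both replicate 3 arrays lay below the other 4 arrays and the groups overlapped. Replicates 1 and 2 stood in opposite order in the 2 groups. The labels do not say whether a replicate number links an induced to a control sample. Of the 43 genes, 23 averaged higher and 20 lower in induced cells, with a median difference of 0.04, beside -0.013 over all genes. In bulk RNA, fewer cells of a type and less RNA per cell cannot be told apart. The genes also varied widely: the range over the 6 arrays had a median of 1.64 for them and 0.56 for all genes. It was at least 2 for 16 of the 43, a range that 5.74% of all genes reached, and under 1 for 14 of them, as for 78.0% of all genes.

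No gene of the list passed the comparison of induced with control cells. With limma at a Benjamini-Hochberg adjusted p under 0.05 over all genes, 0 of 43 were called, where 0.749% of all genes were (136 of 18166). At an unadjusted p under 0.05 there were 7 of the 43 genes, against 17.6% of all genes. These were Aif1, C1qb and Plek, which averaged higher in induced cells, and Trem2, Fgr, Arhgdib and Tlr2, which averaged lower. The 3 induced values lay wholly above the 3 control values for Lyn and Plek, 2 of 43 genes, where 12.0% of all genes did so. They lay wholly below for Arhgdib and Tlr2, again 2 genes, where 13.4% of all genes did so.

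**Figure D1:**
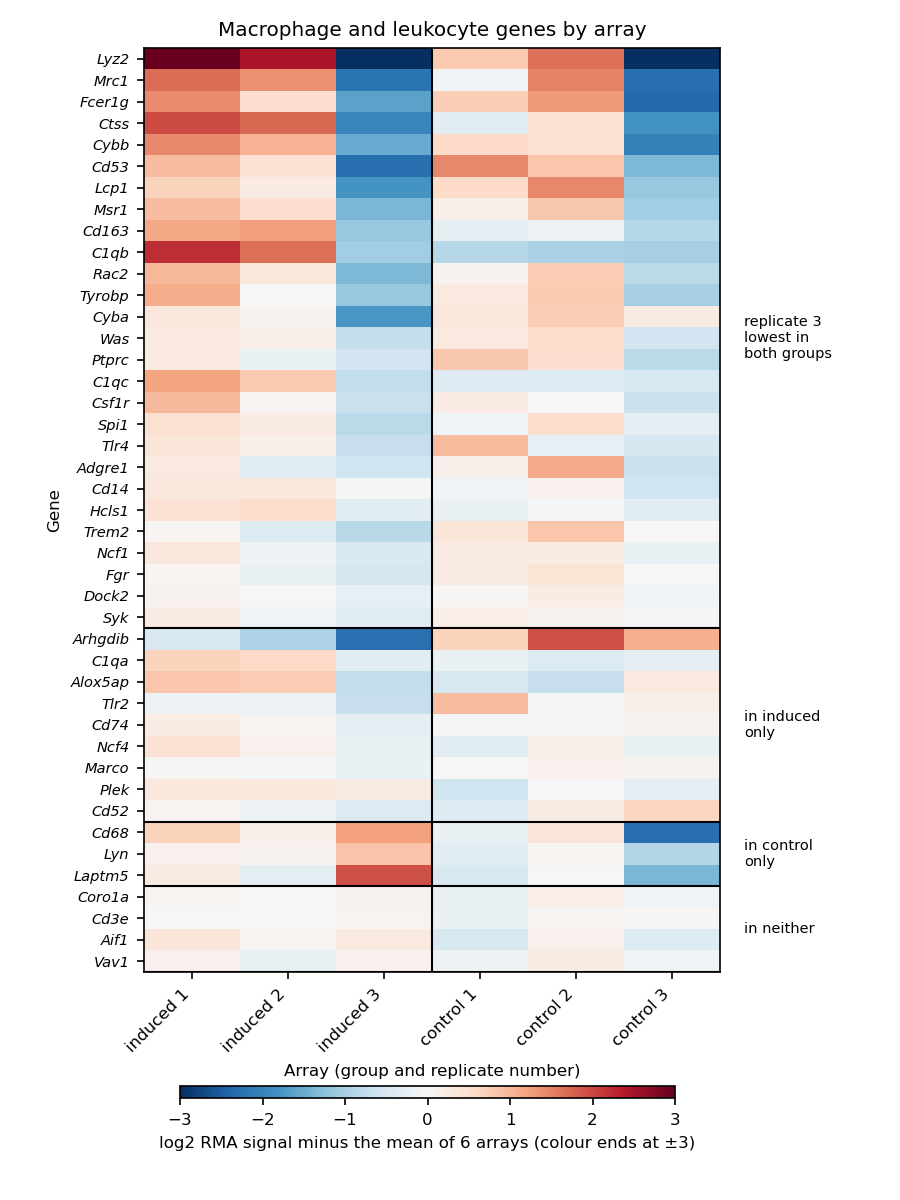
Each row is 1 of 43 genes and each column 1 array, induced arrays on the left and control arrays on the right. Colour shows the log2 RMA signal minus that gene's mean over 6 arrays, and black lines separate genes by whether replicate 3 was the lowest array of its group. Most of the upper 27 genes are blue on the replicate 3 arrays of both groups, and the rest of these 27 are pale on at least 1 of them. Below them, Laptm5 and Cd68 are red on induced replicate 3 and blue on control replicate 3, and Arhgdib is the reverse.

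The genes were then sorted by whether replicate 3 was the lowest array of its group. In both groups at once it was lowest for 27 of 43 genes, or 62.8%, where 15.7% of all genes showed this order. These were 22 of the 35 genes classed as leukocyte genes and 5 of the 8 classed as broadly expressed. Among the comparison lists, 3 of 8 stromal markers and 1 of 10 adipocyte markers had the same order. In the induced group only it was lowest for 9 genes (background 25.7%), in the control group only for 3 (background 18.6%) and in neither for 4 (background 40.1%). Replicate 1 was lowest in both groups for 0 of the 43 genes (background 9.12%), as was replicate 2 (background 9.99%), and replicate 3 was highest in both groups for 0 of them (background 13.8%). This sorting was part of the question and its outcome was partly known, so it is a description with no test.

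Size set a smaller group apart. Replicate 3 lay at least 1 log2 unit below both other replicates in both groups for 9 of the 43 genes, against 62 of 18166 genes in all (0.341%). The 9 were Lyz2, Mrc1, Fcer1g, Ctss, Cybb, Cd53, Lcp1, Msr1 and Tyrobp. A gap of 0.5 was reached by 13 genes (background 1.17%). Just inside the limit of 1 stood Tyrobp, with gaps of 1.12 in the induced and 1.29 in the control group. Just outside it stood Rac2, with 1.65 and 0.91.

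**Figure D2:**
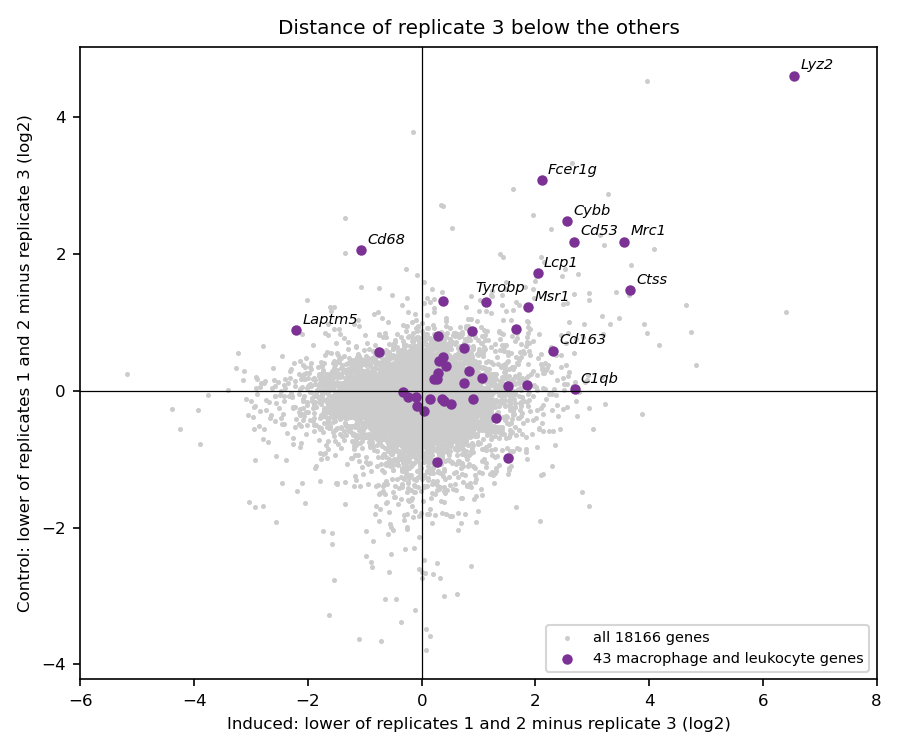
Each point is a gene, grey for all 18166 genes and purple for the 43 macrophage and leukocyte genes. The horizontal axis gives, in log2 units, how far replicate 3 lay below the lower of replicates 1 and 2 in the induced group, and the vertical axis the same in the control group. The upper right part holds 27 purple points, led by Lyz2 at 6.54 and 4.61.

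Lyz2 had the widest range of the 43 genes over the 6 arrays, and the other lysosomal and lipid mediator genes varied less. Lyz2, the lysozyme of macrophages, read 11.56, 10.99 and 4.44 on the induced arrays, against 9.31, 10.19 and 4.71 on the control arrays. Replicate 3 lay 6.54 log2 units below the lower of the other replicates in the induced group and 4.61 in the control group, so the SD over 3 arrays was 3.96 in induced and 2.94 in control cells, larger than the difference between the groups of 0.93 (SE 2.21, adjusted p = 0.877). Ctss, the protease cathepsin S that trims the class II invariant chain, read 8.45, 8.21 and 4.55 on the induced arrays, against 6.15, 6.94 and 4.68 on the control arrays. Both replicate 3 arrays were again lowest, and induced replicates 1 and 2 were above all control arrays. Alox5ap, the protein that presents arachidonate for leukotriene synthesis, read 7.47, 7.41 and 5.89 on the induced arrays, against 6.16, 5.96 and 6.94 on the control arrays, so induced replicates 1 and 2 were highest and the order of replicate 3 differed between the groups. The differences were 1.15 (SE 1.11, adjusted p = 0.655) for Ctss and 0.57 (SE 0.47, adjusted p = 0.589) for Alox5ap.

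The adaptors and Fc receptor chains followed the same order of arrays. Fcer1g, the signalling chain of Fc receptors, read 8.79, 7.88 and 5.77 on the induced arrays, against 8.11, 8.65 and 5.03 on the control arrays. Tyrobp, the adaptor DAP12, read 8.06, 6.94 and 5.81 on the induced arrays, against 7.25, 7.73 and 5.95 on the control arrays. For both, the other 4 arrays lay above both replicate 3 arrays and the groups overlapped, with differences of 0.22 (SE 1.12) and -0.042 (SE 0.66). Trem2, a lipid receptor that signals through DAP12, read 6.17, 5.69 and 5.27 on the induced arrays, against 6.49, 6.94 and 6.12 on the control arrays. Trem2 was also lowest on replicate 3 in each group, by the smaller gaps of 0.42 in the induced and 0.37 in the control group. It averaged lower in induced cells, by 0.80 on average (SE 0.29, adjusted p = 0.232), and the groups overlapped by a narrow margin.

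Scavenger receptors split into those with wide and those with narrow ranges. Mrc1, the mannose receptor, read 9.04, 8.73 and 5.17 on the induced arrays, against 7.28, 8.86 and 5.10 on the control arrays. Msr1, which binds modified lipoproteins, read 8.25, 7.82 and 5.95 on the induced arrays, against 7.50, 8.13 and 6.28 on the control arrays. Both replicate 3 arrays were lowest for each, and the groups overlapped. Marco, a receptor of some tissue macrophages, read 6.19, 6.12 and 5.97 on the induced arrays, against 6.13, 6.28 and 6.25 on the control arrays, a narrow range. Cd163, the haemoglobin receptor, read 6.33, 6.42 and 4.02 on the induced arrays, against 4.89, 4.99 and 4.30 on the control arrays, so only induced replicates 1 and 2 stood out.

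The C1q genes were high on 2 arrays alone. They encode the 3 chains of C1q, the complement protein that tags dying cells, and stand next to each other on chromosome 5 of the RefSeq annotation of GRCr8 in the order C1qb, C1qc, C1qa. C1qb read 8.17, 7.60 and 4.92 on the induced arrays, against 5.09, 4.98 and 4.96 on the control arrays. C1qc read 7.28, 6.88 and 5.37 on the induced arrays, against 5.70, 5.71 and 5.63 on the control arrays, and C1qa read 7.30, 7.19 and 6.29 on the induced arrays, against 6.43, 6.21 and 6.32 on the control arrays. In all 3 genes induced replicates 1 and 2 lay above the other 4 arrays, which differed from each other by less than that step. Averages over 3 arrays were 6.90 ± 1.74 in induced and 5.01 ± 0.067 in control cells for C1qb (SD, n = 3 each), a difference of 1.89 (SE 0.79, adjusted p = 0.282). The difference was 0.83 (SE 0.46, adjusted p = 0.41) for C1qc and 0.60 (SE 0.27, adjusted p = 0.313) for C1qa.

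**Figure D3:**
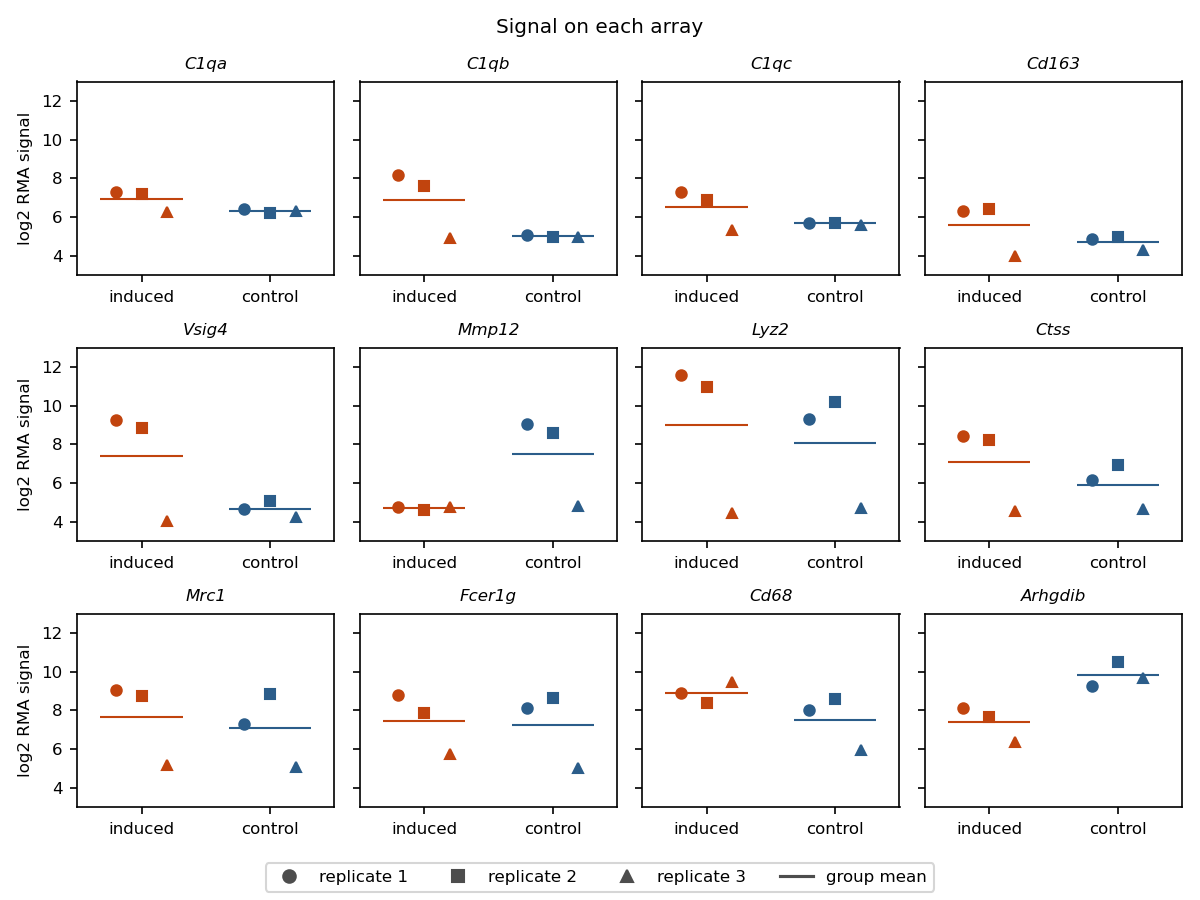
Log2 RMA signal on each array for 12 genes, with induced arrays on the left of each panel and control arrays on the right, a symbol for each replicate number and a bar for the group mean. Replicate 3 (triangles) lies lowest in both groups for Lyz2, Ctss, Mrc1 and Fcer1g, induced replicates 1 and 2 stand alone for C1qb and Vsig4, and control replicates 1 and 2 stand alone for Mmp12.

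Macrophage identity genes did not all share that order. Cd68, a lysosomal membrane glycoprotein used as a macrophage stain, read 8.92, 8.38 and 9.45 on the induced arrays, against 8.01, 8.60 and 5.96 on the control arrays. It was lowest on control replicate 3 but highest on induced replicate 3, and its difference was 1.39 (SE 0.67, adjusted p = 0.347). Csf1r, the receptor for the macrophage growth factor CSF1, read 7.52, 6.62 and 5.87 on the induced arrays, against 6.78, 6.52 and 5.89 on the control arrays. Spi1, which encodes PU.1, read 6.68, 6.47 and 5.42 on the induced arrays, against 6.10, 6.76 and 5.92 on the control arrays. Both were lowest on replicate 3 in each group, with differences of 0.28 (SE 0.43) and -0.075 (SE 0.37). Adgre1, an adhesion receptor used as a macrophage marker, read 5.73, 5.12 and 4.84 on the induced arrays, against 5.60, 6.58 and 4.80 on the control arrays, with control replicate 2 highest. Aif1, the calcium-binding protein IBA1, stayed between 4.76 and 5.60, and its difference was 0.49 (SE 0.19, adjusted p = 0.249).

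Among the genes of the leukocyte surface, Cd53 and Laptm5 went opposite ways on induced replicate 3. Cd53, a tetraspanin, read 8.01, 7.51 and 4.83 on the induced arrays, against 8.52, 7.91 and 5.73 on the control arrays. Laptm5, a lysosomal protein of blood cells, read 7.80, 7.23 and 9.43 on the induced arrays, against 7.04, 7.52 and 6.15 on the control arrays. Induced replicate 3 was therefore the lowest array for Cd53 and the highest for Laptm5, as it was for Cd68 and for the kinase Lyn. Ptprc, the tyrosine phosphatase CD45 carried by leukocytes, read 5.13, 4.63 and 4.26 on the induced arrays, against 5.64, 5.35 and 4.04 on the control arrays, lowest on replicate 3 in both groups. Its mean of 4.84 over the 6 arrays lay below the array medians. Cd52, a short glycoprotein of lymphocytes and monocytes, read 5.60, 5.37 and 5.10 on the induced arrays, against 5.13, 5.74 and 6.17 on the control arrays, highest on control replicate 3. Narrow ranges were seen for Cd74, the class II invariant chain, between 5.05 and 5.56, and Cd3e, a chain of the T cell receptor complex, between 4.52 and 4.79.

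Genes of signalling proteins downstream of ITAM receptors varied less, but several were dim. Syk averaged 4.91, Plek 5.68 and Vav1 5.74 over the 6 arrays, near or below the array medians, where RMA compresses signals. Lyn, a Src family kinase, read 7.37, 7.36 and 8.11 on the induced arrays, against 6.94, 7.34 and 6.37 on the control arrays, with all 3 induced values above the control values and a difference of 0.73 (SE 0.31, adjusted p = 0.284). Fgr, another Src family kinase, read 6.37, 6.11 and 5.82 on the induced arrays, against 6.57, 6.72 and 6.31 on the control arrays, and its groups overlapped at 1 array. Plek, the protein kinase C substrate pleckstrin, read 6.00, 6.01 and 5.96 on the induced arrays, against 5.08, 5.66 and 5.38 on the control arrays, with no overlap and a difference of 0.61 (SE 0.16, adjusted p = 0.137). Vav1, a guanine nucleotide exchange factor for Rac, read 5.88, 5.53 and 5.86 on the induced arrays, against 5.60, 5.95 and 5.62 on the control arrays, and the kinase Syk stayed between 4.54 and 5.16.

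Actin and Rac regulators included the largest difference in either direction. Arhgdib, a cytosolic regulator found mainly in blood cells, read 8.15, 7.69 and 6.38 on the induced arrays, against 9.27, 10.51 and 9.67 on the control arrays. All 3 induced values were below all 3 control values, and the means were 7.41 ± 0.92 and 9.81 ± 0.63 (SD, n = 3 each). Its difference of -2.41 (SE 0.51, adjusted p = 0.0963) still missed the threshold over all genes. Unlike most of the list, it was high on control replicate 3. Lcp1, the actin bundler L-plastin, read 7.84, 7.43 and 5.38 on the induced arrays, against 7.75, 8.62 and 6.03 on the control arrays, and Rac2, the Rac form of blood cells, read 7.97, 7.30 and 5.65 on the induced arrays, against 7.08, 7.75 and 6.18 on the control arrays. Both were lowest on replicate 3 in each group, and their differences of -0.58 (SE 0.84) and -0.032 (SE 0.65) were smaller than their errors. Was, the actin nucleation regulator WASP, ranged from 4.61 to 5.89, Hcls1, a cortactin relative, from 5.00 to 5.89, Coro1a from 5.32 to 5.75 and Dock2, an activator of Rac, from 4.49 to 4.97.

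The subunits of the phagocyte NADPH oxidase did not move as one. Cybb, the catalytic subunit gp91phox, read 8.23, 7.84 and 5.28 on the induced arrays, against 7.35, 7.25 and 4.76 on the control arrays, and replicate 3 was at least 2 log2 units below the other replicates of its own group. Cyba, its partner p22phox, which many cell types make, read 9.91, 9.67 and 7.81 on the induced arrays, against 9.90, 10.30 and 9.82 on the control arrays. Here control replicate 3 was close to the other control arrays and only induced replicate 3 was low, so the difference was -0.88 (SE 0.53, adjusted p = 0.456). The cytosolic subunit Ncf1 read 6.67, 6.16 and 5.87 on the induced arrays, against 6.57, 6.55 and 6.11 on the control arrays, and Ncf4 stayed between 4.60 and 5.35.

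Pattern recognition receptors, which stromal cells also carry, had high values on all arrays in the case of Cd14. Cd14, the lipopolysaccharide co-receptor, read 10.01, 9.98 and 9.61 on the induced arrays, against 9.56, 9.81 and 9.06 on the control arrays, a range under 1. Tlr4, the lipopolysaccharide receptor, read 8.17, 7.97 and 7.13 on the induced arrays, against 8.77, 7.59 and 7.30 on the control arrays, highest on control replicate 1. Tlr2, the receptor for bacterial lipopeptides, read 5.33, 5.32 and 4.80 on the induced arrays, against 6.41, 5.46 and 5.65 on the control arrays, with all induced values below the control values and a difference of -0.69 (SE 0.28, adjusted p = 0.273). Words such as high and dim describe the array signal only. Levels of different genes were not tested against each other, since probe sets differ in their response.

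The fit without the replicate 3 arrays gave another count. With 2 arrays per group, 8 of 43 genes were called (18.6%), where 4.07% of all genes were. The arrays left out were already known to be low for many of the 43 genes. Leaving them out narrows the spread within groups for these genes, so the calls below are a description and not support. It also moved the differences themselves, from 1.89 to 2.85 for C1qb and from 0.57 to 1.38 for Alox5ap. That of Arhgdib came nearer to 0, from -2.41 to -1.97. Higher in induced cells were C1qb by 2.85 (SE 0.20, adjusted p = 0.00137), Ctss by 1.79 (adjusted p = 0.0162), Lyz2 by 1.53 (adjusted p = 0.0474), Cd163 by 1.44 (adjusted p = 0.00383), Alox5ap by 1.38 (adjusted p = 0.00569), C1qc by 1.38 (adjusted p = 0.00894) and C1qa by 0.92 (adjusted p = 0.0228). Arhgdib was the 1 gene called lower, with a difference of -1.97 (SE 0.38, adjusted p = 0.0402). Over all alternatives the adjusted p ran from 0.00123 to 0.51 for C1qb, 0.0162 to 0.906 for Ctss, 0.0474 to 0.994 for Lyz2 and 0.00383 to 0.799 for Cd163. It ran from 0.00569 to 0.841 for Alox5ap, 0.00789 to 0.665 for C1qc, 0.0177 to 0.573 for C1qa and 0.0253 to 0.271 for Arhgdib. Single arrays moved the count as well: without induced replicate 3 alone 6 genes were called, namely the 3 C1q genes, Cd163, Hcls1 and Arhgdib, and without any other single array 0 were. In all, 557 of 18166 genes were called without induced replicate 3.

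**Figure D4:**
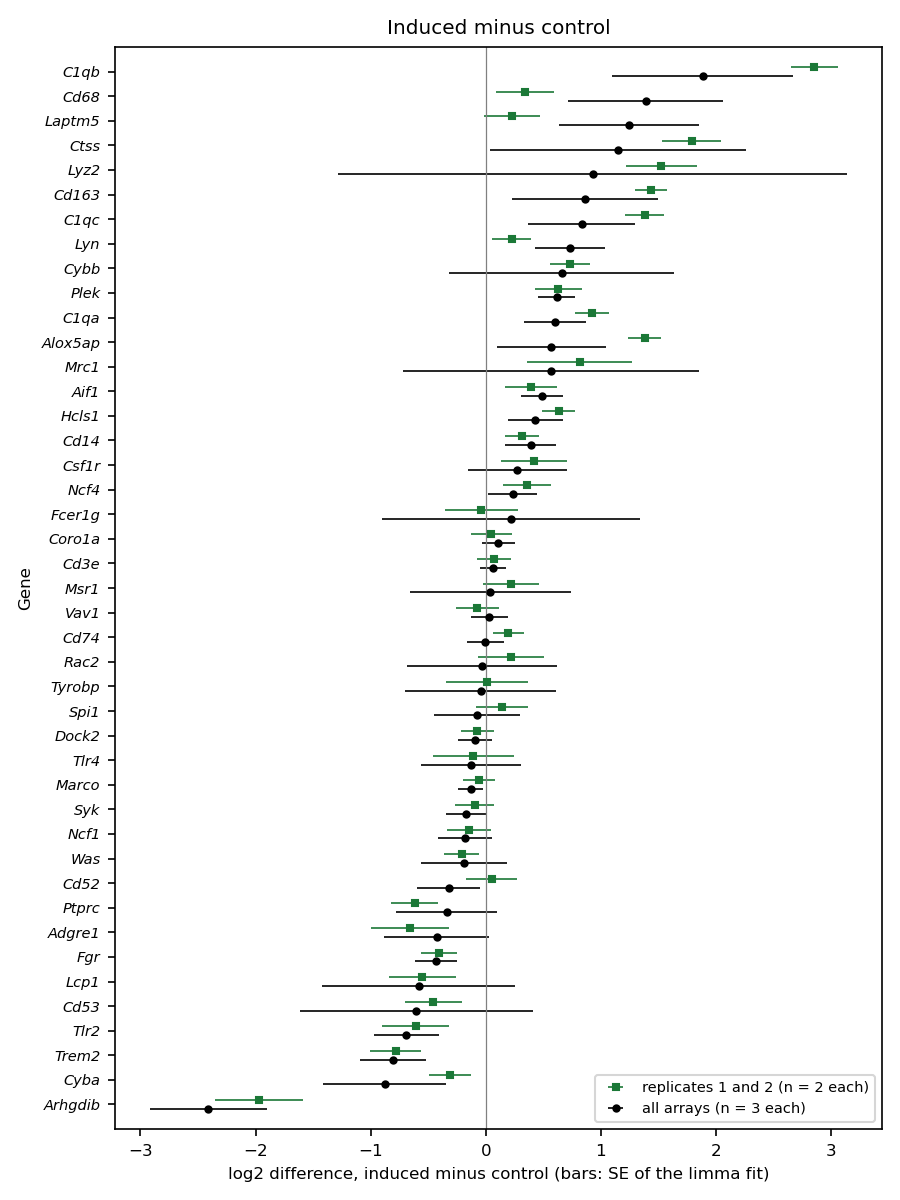
Log2 difference between induced and control cells for each of 43 genes, with the standard error of the limma fit, over all arrays (black circles, 3 per group) and over replicates 1 and 2 (green squares, 2 per group). The bars of Lyz2, Mrc1, Fcer1g, Cd53 and Cybb shrink without replicate 3, the C1q genes, Ctss, Lyz2, Cd163 and Alox5ap lie further to the right, and Cd68, Laptm5 and Lyn lie nearer to 0.

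Promoter sequence is shown for the members whose window held the core of the PU.1 binding motif, since PU.1 is the main macrophage transcription factor in this list. RefSeq windows of 300 bases on GRCr8 (250 before to 50 after the start in the table) were found for 30 of the 43 genes, and both strands were searched for the 8 letters GAGGAAGT. Other forms of the motif were not searched. The motif was present in 3 of the 30 windows, and in 2.42% of all 33469 windows in the table. Capitals mark the match, which reads ACTTCCTC where it lies on the strand opposite to the gene. Its first base is 46 bases before the start in Cd53 (chr2:197087847-197088146, minus strand), 17 in Ctss (chr2:185775146-185775445, plus strand) and 52 in Vav1 (chr9:2248705-2249004, plus strand).
Cd53: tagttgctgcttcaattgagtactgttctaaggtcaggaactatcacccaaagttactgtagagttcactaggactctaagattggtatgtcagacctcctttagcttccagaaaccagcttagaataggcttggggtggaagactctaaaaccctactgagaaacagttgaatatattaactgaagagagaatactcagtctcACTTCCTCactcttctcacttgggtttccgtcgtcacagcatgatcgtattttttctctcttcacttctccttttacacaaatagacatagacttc
Ctss: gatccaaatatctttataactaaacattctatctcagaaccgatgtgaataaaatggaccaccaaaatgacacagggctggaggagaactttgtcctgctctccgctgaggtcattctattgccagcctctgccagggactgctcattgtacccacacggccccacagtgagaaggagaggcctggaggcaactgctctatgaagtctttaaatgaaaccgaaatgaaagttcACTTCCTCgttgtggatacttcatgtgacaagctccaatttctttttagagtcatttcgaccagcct
Vav1: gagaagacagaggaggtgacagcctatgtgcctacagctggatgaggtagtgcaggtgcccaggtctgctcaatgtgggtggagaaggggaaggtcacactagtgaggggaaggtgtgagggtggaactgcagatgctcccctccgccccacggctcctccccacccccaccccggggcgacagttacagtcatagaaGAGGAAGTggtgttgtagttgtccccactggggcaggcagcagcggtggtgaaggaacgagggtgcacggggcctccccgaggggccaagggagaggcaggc
Cd53 and Ctss were among the 9 genes at least 1 log2 unit lower on replicate 3 in both groups, while Vav1 stayed within 0.42 over the 6 arrays. Of the same 9 genes, Lyz2, Mrc1 and Cybb had a window without the motif and the remaining 4 had no window in the table. A match is a description of the sequence, not a binding site.

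Further genes of the same cells were taken from lists that do not share a gene with the 43. The other leukocyte genes (18 measured of 20) averaged 6.30, 6.07 and 5.67 on the induced arrays, against 6.00, 6.29 and 5.69 on the control arrays. The other macrophage genes (23 measured of 25) averaged 6.19, 5.90 and 5.22 on the induced arrays, against 5.86, 6.00 and 5.14 on the control arrays. On both lists the replicate 3 arrays were lowest, and replicate 3 was lowest in both groups for 11 of 18 and 10 of 23 genes, where 15.7% of all genes had this order. None of either list was called, and 1 and 2 genes had an unadjusted p under 0.05. Ptpn6, the phosphatase SHP-1, stood at 0.72 (SE 0.23, adjusted p = 0.19) and the tetraspanin Cd37 at 0.28 (SE 0.32, adjusted p = 0.715).

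The largest differences of the macrophage list pointed in opposite directions. Vsig4, a complement receptor of tissue macrophages, read 9.27, 8.86 and 4.04 on the induced arrays, against 4.66, 5.08 and 4.28 on the control arrays. It was high on the same arrays as C1qb, and its difference was 2.71 (SE 1.32, adjusted p = 0.35). Mmp12, the macrophage elastase, read 4.77, 4.60 and 4.76 on the induced arrays, against 9.07, 8.59 and 4.81 on the control arrays. It was high on control replicates 1 and 2 alone, and its difference was -2.78 (SE 1.05, adjusted p = 0.248). Lyz2, by comparison, was high on all 4 of these arrays.

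Markers of T and B cells hardly varied between arrays. The T cell list (8 of 9 genes) averaged 5.00, 4.97 and 4.98 on the induced arrays, against 4.98, 5.03 and 5.05 on the control arrays, with 0 called. Its largest differences were Cd2 at -0.24 and Cd5 at -0.13. The B cell list (4 of 6) averaged 5.59, 5.39 and 5.49 on the induced arrays, against 5.48, 5.45 and 5.47 on the control arrays, with 0 called, Cd79a at -0.11 and Cd79b at 0.077. For these lists the arrays stayed within 0.2 of each other. Both list means lay below the array medians over all features, where RMA compresses signals. In the neutrophil and mast cell list 0 of 10 genes were called (median 0.13, Mpo at 0.95 and S100a8 at 0.40), and in the endothelial list 0 of 6 (median -0.089, Tek at -0.74 and Esam at -0.18).

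**Figure D5:**
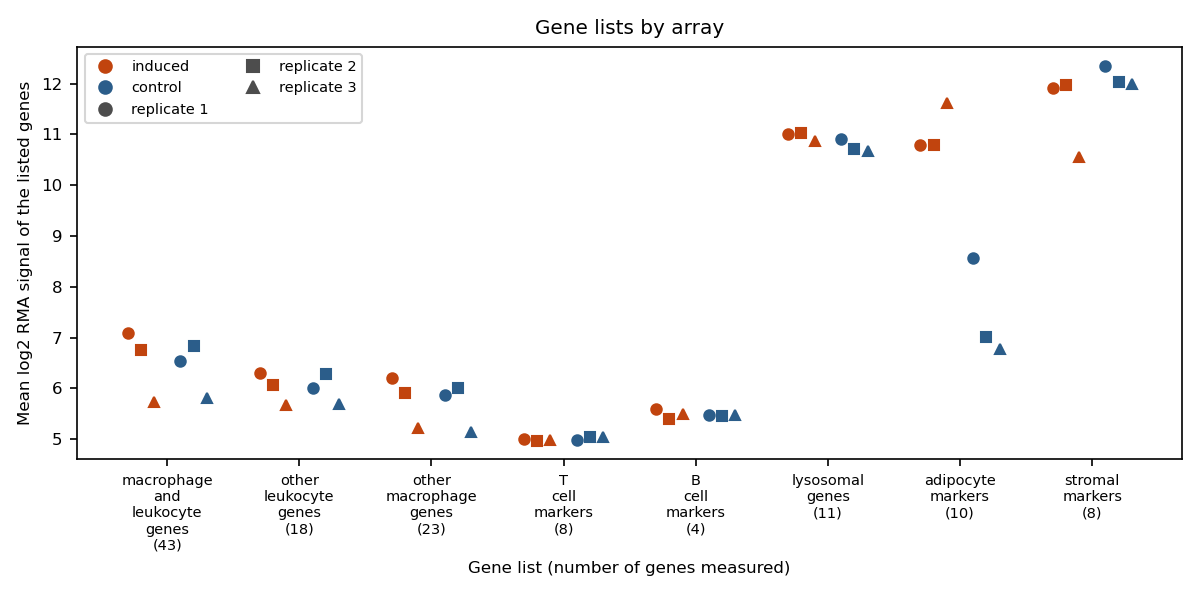
Mean log2 RMA signal of the listed genes on each array, for 8 lists on the horizontal axis with the number of genes measured. Colour gives the group, induced to the left of control, and symbols give the replicate number. Both replicate 3 arrays are lowest for the macrophage and leukocyte genes and for the other leukocyte and macrophage lists, and the T and B cell lists are flat.

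Genes around the macrophage were measured too. Of 7 class II genes 1 was called: RT1-DMb, a chain of the peptide editor DM, rose by 1.78 (SE 0.23, adjusted p = 0.033) and read 7.42, 6.86 and 7.74 on the induced arrays, against 5.68, 5.42 and 5.59 on the control arrays, high on induced replicate 3 as well. The median of that list was 0.019. In the list of growth factors and attractants 0 of 5 were called (median 0.0094): Ccl2, a monocyte attractant, read 11.52, 11.55 and 8.83 on the induced arrays, against 12.30, 12.08 and 11.95 on the control arrays, and Cx3cl1 stood at 0.28. Csf1, the ligand of the Csf1r product, read 11.54, 11.38 and 10.37 on the induced arrays, against 11.29, 11.13 and 11.30 on the control arrays and was thus high on control replicate 3, where Csf1r was low. Of 8 Toll-like receptor partners 0 were called (median 0.16), with Lbp at -0.99 and Ly96 at -0.50.

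Broadly expressed lysosomal genes had means that lay close together. The list averaged 11.00, 11.02 and 10.87 on the induced arrays, against 10.91, 10.70 and 10.68 on the control arrays, and replicate 3 was lowest in both groups for 3 of 11 genes (15.7% of all genes had this order). None was called (0 of 11, with 4 at an unadjusted p under 0.05), the largest differences being Ctsd, the protease cathepsin D, at 0.89 (SE 0.23, adjusted p = 0.131) and Lamp2, a lysosomal membrane protein, at 0.55 (SE 0.11, adjusted p = 0.0844). The adipocyte list had 4 of 10 genes called, all higher (Lep, Retn, Cidec and Plin1, median 3.80), and the stromal list 0 of 8 (median -0.63, Lum at -0.98 and Thy1 at -0.97). Induced replicate 3, where the macrophage and leukocyte mean was lowest, had the lowest stromal and the highest adipocyte mean of the 6 arrays, and control replicate 3 had the lowest adipocyte mean. Their part in the order of the macrophage and leukocyte genes was not tested.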

How the data were processed

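The deposited values are log2 signals that the authors deposited after RMA, per the submitters' processing notes, which give no version. RMA corrects background, makes the array distributions equal and summarises probes. The log2 scale was read from the values. RMA gives no detection call and compresses low signals, and the number of arrays, not a depth, limits the precision. Of 36685 features, the platform annotation gave 18511 a single symbol, 575 several and 17599 none. The highest-mean feature was kept for each of 18166 genes. All 43 measured members matched the GRCr8 RefSeq gene table by gene number.

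For the comparison, a limma model (3.58.1, under R 4.3.3; lmFit and eBayes, two-sided, no block, 4 residual degrees of freedom) was fitted to all genes, with Benjamini-Hochberg adjustment over all genes. The fit was checked on simulated data with independent noise for each gene and array. That check did not cover arrays that are low for many genes at once. With 3 arrays a group an exact test has a smallest p of 0.1 and was not used. Alternatives were a replicate block, leaving out arrays, array weights, a variance trend, a filter on dim genes and other feature choices.

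The members, the 12 further lists and the sorting by replicate 3 were chosen with earlier results of these data known. Values on each array are given for the 3 members of each role with the highest mean and the 5 largest differences in each direction. Those of Ptprc, Adgre1, Cd163, Plek, Csf1 and Col1a1 were added after the values were seen. From each list up to 4 called genes are named, or the 2 with the largest difference where none was called.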

Additional observations from a re-analysis of the deposited data

How the results depend on the processing

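With 3 arrays per group and no detection call, small differences of dim genes cannot be resolved here. Calls among all genes (136 in the reported fit) numbered 12 with a replicate block, 740 without both replicate 3 arrays, 929 with array weights, 69 over all features, and 2 to 557 with 1 array left out (2 without induced replicate 1, 26 without induced replicate 2, 15 without control replicate 2, 20 without control replicate 3). Calls among the 43 genes (0 in the reported fit) numbered 8 without both replicate 3 arrays, 4 with array weights (the C1q genes and Arhgdib) and 0 to 6 with 1 array left out. Among the list genes (5 called of 118 measured, alternatives added after the data were seen), they numbered 0 with the block, 15 without both replicate 3 arrays, 19 with array weights, 3 over all features and 0 to 11 with 1 array left out. The cause of these shifts was not tested. Among genes above the median of all features, which kept 28 of the 43, 2 members had groups that did not overlap in place of 4. Replicate 3 was lowest in both groups by at least 0.5 for 13 genes in place of 27. The median difference of the 43 genes (0.04) ran from -0.18 without control replicate 3 to 0.40 without induced replicate 3, so its sign was not stable. Each shift was smaller than the SD of their mean within groups (0.62), which the low replicate 3 arrays widen.

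Across all genes the replicate numbers paired the arrays weakly, and not for every number. Deviations from the group mean correlated across genes at 0.023, 0.12 and 0.154 for replicates 1, 2 and 3. The value for replicate 3 was the highest of all pairs, whereas induced replicate 1 correlated best with control replicate 2 (0.123). The block called 0 of the 43 genes. It lowered the SE of Cd53 from 1.01 to 0.15 and of Lyz2 from 2.21 to 0.48, but raised that of Laptm5 from 0.61 to 0.70.

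The sign of the difference changed in at least 1 alternative for 20 of the 43 genes, 0 of which was called in the reported fit. Without both replicate 3 arrays the differences that changed sign were Cd52 0.051, Cd74 0.20, Spi1 0.14, Tyrobp 0.0085, Fcer1g -0.038, Vav1 -0.072 and Rac2 0.22. With array weights they were Cd53 0.089, Cd74 0.13, Spi1 0.091, Tyrobp 0.25, Vav1 -0.062, Rac2 0.31 and Tlr4 0.24. With 1 array left out the difference ran, for Csf1r from -0.15 to 0.67, Mrc1 from -0.42 to 1.81, Msr1 from -0.47 to 0.73, Fcer1g from -0.89 to 1.08, Vav1 from -0.031 to 0.15, Lyz2 from -0.75 to 3.21, Cd53 from -1.43 to 0.37, Cd74 from -0.11 to 0.15, Spi1 from -0.32 to 0.31, Tyrobp from -0.60 to 0.52, Rac2 from -0.53 to 0.63, Dock2 from -0.18 to 0.013, Was from -0.52 to 0.13, Lcp1 from -1.30 to 0.17, Ncf1 from -0.40 to 0.0045, Tlr4 from -0.42 to 0.31, Cd3e from -0.012 to 0.11, Adgre1 from -0.86 to 0.033 and Cybb from -0.19 to 1.58.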

Other observations

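The 62 genes whose replicate 3 value lay at least 1 log2 unit below both other replicates in both groups held 9 of the 43 macrophage and leukocyte genes and 6 of 41 other leukocyte and macrophage genes from the lists (Fcgr1a, Folr2, Gpnmb, Itgb2, Pf4 and Tlr7), besides the stromal gene Dcn. Of the remaining 46 genes, the following were picked after their values were seen. How many of the 46 are leukocyte genes was not counted, so the picks do not show their share. Ms4a4a, a membrane protein of macrophages, read 8.65, 8.41 and 4.31 on the induced arrays, against 6.32, 6.85 and 4.24 on the control arrays. Pla2g7, the phospholipase that degrades platelet-activating factor, read 8.34, 7.85 and 4.71 on the induced arrays, against 7.39, 7.52 and 5.11 on the control arrays. Ccl3, a chemokine of macrophages, read 8.17, 7.29 and 5.02 on the induced arrays, against 6.82, 8.40 and 4.45 on the control arrays, and Cd4, which rat macrophages carry as well as T cells, read 8.49, 7.96 and 5.96 on the induced arrays, against 7.55, 7.45 and 5.77 on the control arrays. That the replicate 3 arrays were lowest for these 4 genes follows from the rule that set the 62 apart, as it does for Cybb and Mrc1.

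The same 62 genes also held genes that are not known as leukocyte genes. Tmeff2, a transmembrane protein with follistatin modules, read 10.83, 10.83 and 6.86 on the induced arrays, against 9.53, 9.44 and 4.91 on the control arrays. Stc1, the secreted protein stanniocalcin, read 12.20, 12.26 and 8.92 on the induced arrays, against 11.32, 12.07 and 8.45 on the control arrays. Fst, the activin-binding protein follistatin, read 10.63, 10.70 and 8.16 on the induced arrays, against 10.27, 10.17 and 8.48 on the control arrays. These genes were picked from the 62, whose entry rule was that order of arrays, so their order was fixed by the rule. What lies behind the order was not tested. At least 1 log2 unit above both other replicates in both groups, replicate 3 stood for 6 of 18166 genes, 0.0330%, and for 0 of the 43.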
